A study of Rattus norvegicus with 9 samples.

Results

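The hypothalamus of late pubertal female rats was compared with that of juvenile female rats across the whole array. The comparison used 6 of the 9 arrays of a series on normal sexual development, chosen by their titles. The juvenile group held 3 arrays of animals aged 26 days (replicates 1, 2 and 3), which the labels call control samples. The late pubertal group held 3 arrays of animals aged 31 days (replicates 12, 14 and 20). Another 3 arrays came from early pubertal animals aged 29 days (replicates 7, 8 and 10). All animals were normal females with no treatment in the labels, and the strain is not given in the sources used here. Each array is labelled as the hypothalamus of 1 animal, so the spread between arrays joins animal and technical variation.

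Puberty begins when hypothalamic neurons that make gonadotropin-releasing hormone (GnRH) raise their pulsatile output, which drives the pituitary to release LH and FSH and the ovary to make steroids. GnRH neurons are few and scattered. They receive inhibitory input through GABA and opioid peptides, excitatory input through glutamate and kisspeptin, and signals from astrocytes and tanycytes, the ependymal cells that line the floor of the third ventricle. Steroids of the ovary and adrenal act back on the same tissue. In whole hypothalamus, fewer cells of a type and less RNA per cell cannot be told apart.

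Levels are given as log2(signal + 16) of the deposited signals after quantile normalization between arrays, and every difference is the late pubertal mean minus the juvenile mean on that scale, with its standard error (SE). The constant of 16 understates the change of dim genes. Of 16 marker genes of the hypothalamus, 13 passed the filter on low levels, among them oxytocin (Oxt), vasopressin (Avp) and melanin-concentrating hormone (Pmch), and the transcription factors Otp, Sim1 and Six3 did not. The median deposited signal per array was 107 ± 5.37 in juvenile animals and 109 ± 11.7 in late pubertal animals (SD, n = 3 each), with p = 0.9 in an exact permutation test (two-sided, smallest possible p = 0.1). The ratio of the 3′ to the 5′ actin control is a sign of RNA integrity. It was 2.73 ± 0.388 in juvenile and 2.78 ± 0.483 in late pubertal animals (SD, n = 3 each, exact permutation p = 0.9). By ascending replicate number it was 2.40, 3.16 and 2.62 on juvenile arrays and 2.82, 2.27 and 3.24 on late pubertal arrays. Juvenile replicate 2 and late pubertal replicate 20 thus had the highest ratios. Whether this ratio bears on results that move without these arrays was not tested. Juvenile arrays correlated with late pubertal arrays with r of 0.976 to 0.979. Within the juvenile arrays r was 0.973 to 0.979 and within the late pubertal ones 0.978 to 0.979. The highest of these r, 0.9794, was that of juvenile replicate 2 with late pubertal replicate 20.

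No gene differed between the 2 stages after correction. In limma, 0 of 18625 tested probe sets were higher and 0 lower at an adjusted p under 0.05 (0% each way). At an unadjusted p under 0.05, 415 probe sets were higher (2.23%) and 357 lower (1.92%). These counts moved with single animals: they were 817 and 769 without juvenile replicate 2, and the higher count was 266 without late pubertal replicate 20. With median centring in place of quantile normalization, 295 were higher and 452 lower, so the balance between the directions turned with the scaling. The 3 arrays of one stage lay wholly above those of the other for 1099 probe sets in the late pubertal direction (5.9%) and for 1029 in the juvenile direction (5.52%). Most differences were small. Leaving out 5% of probe sets at each end, the difference lay between -0.28 and 0.29, and the median SE was 0.15. It passed 1, a doubling, for 10 probe sets and -1 for 7.

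**Figure D1:**
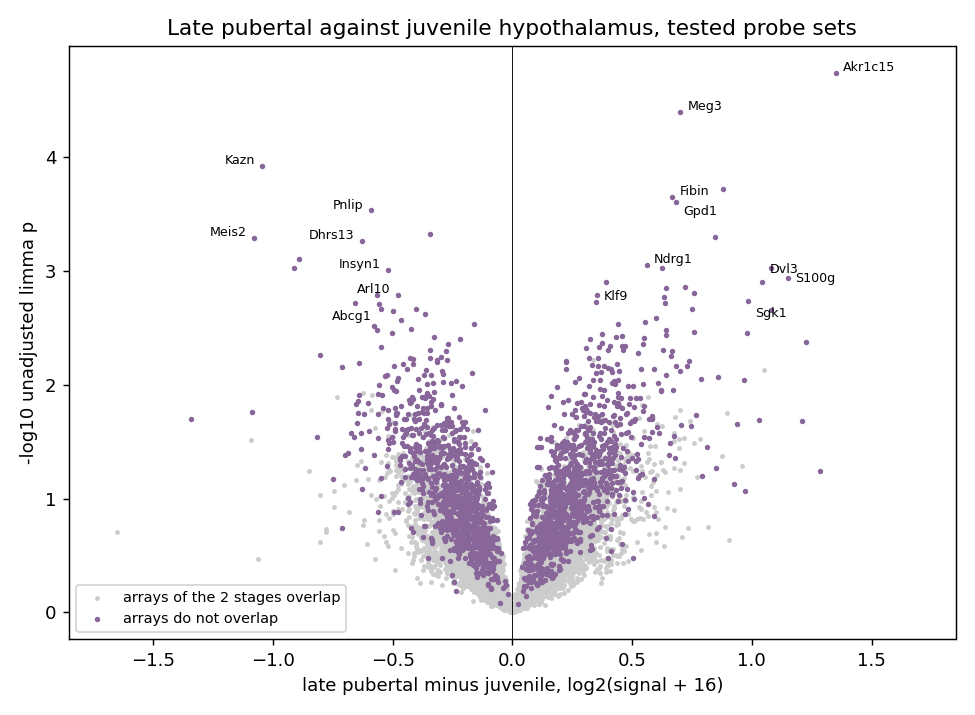
Difference between late pubertal and juvenile hypothalamus on the log2(signal + 16) scale (horizontal) against the negative log10 of the unadjusted limma p (vertical) for 18625 probe sets; each point is a probe set, purple where the 3 arrays of each stage do not overlap. Akr1c15 and Meg3 stand highest on the late pubertal side and Kazn, Pnlip and Meis2 on the juvenile side, and none passed an adjusted p of 0.05.

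The group of genes with the largest median difference among 41 gene lists was that of known glucocorticoid-induced genes. The lists were chosen with earlier results of these data known and no list was tested, so this rank only describes the values. Glucocorticoids, the adrenal steroids released under pituitary control, bind a nuclear receptor that switches on a set of target genes in neurons and glia. Of the 30 listed genes tested, 24 had a higher mean in late pubertal animals, with a median difference of 0.28, against 50.8% of all 10600 tested genes and a median of 0.0022. The 3 late pubertal arrays lay above all 3 juvenile arrays for 15 of the 30 and below them for 1, against 6.18% and 5.12% of all genes. At an unadjusted limma p under 0.05, 10 members were higher and 1 was lower, against 2.05% and 1.75% of all genes. None passed the adjusted threshold. With single arrays left out, the median ran from 0.22 to 0.32, and 21 to 26 members were higher. Without juvenile replicate 2 or late pubertal replicate 12, leptomeningeal markers had the larger median (0.30 and 0.33, against 0.22 and 0.26). Other lists had a larger one too in some settings, such as choroid plexus genes without juvenile replicate 2 (0.23). The red blood cell list, with 2 genes tested in the main setting, reached 0.39 without late pubertal replicate 12 and 0.52 without late pubertal replicate 20. Without early pubertal replicate 10 that list reached 0.37.

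Sgk1, a kinase named for its induction by serum and glucocorticoids (probe set 1367802_at), had levels of 9.49, 9.06 and 9.74 on the juvenile arrays, given here and below by ascending replicate number. On the late pubertal arrays it stood at 10.19, 10.94 and 10.10. The groups did not overlap, and late pubertal replicate 14 was the highest of all 9 arrays. The difference was 0.98 ± 0.25 (1.98-fold, n = 3 each), with a limma adjusted p of 0.9998. Without late pubertal replicate 14 it was 0.72. The early pubertal arrays were at 9.29, 9.91 and 10.05, all below the late pubertal ones.

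Gpd1, the cytosolic glycerol-3-phosphate dehydrogenase that joins glycolysis to lipid synthesis, was measured by 2 probe sets. The brighter stood at 9.82, 9.64 and 9.60 in juvenile animals and at 10.21, 10.45 and 10.45 in late pubertal animals. Neither probe set overlapped between the stages. The differences were 0.68 ± 0.13 and 0.98 ± 0.27, and the brighter had a limma adjusted p of 0.768. Ndrg1, a substrate of the Sgk1 kinase that is abundant in myelinating glia, also had 2 probe sets without overlap, with differences of 0.36 ± 0.09 and 0.56 ± 0.13. The brighter Ndrg1 probe set read 10.11, 10.07 and 9.82 in juvenile animals and 10.31, 10.36 and 10.40 in late pubertal ones.

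Klf9, a zinc finger factor induced by both glucocorticoid and thyroid hormone, stood at 10.67, 10.80 and 10.73 in juvenile animals and at 11.03, 11.12 and 11.10 in late pubertal animals. All late pubertal arrays were above all 6 others. The difference was 0.35 ± 0.09, and a second tested probe set gave 0.36 ± 0.14. A dim probe set of Klf9 that missed the filter differed by -0.07. Fkbp5, a co-chaperone that lowers the affinity of the glucocorticoid receptor, read 8.68, 8.61 and 8.51 against 8.89, 8.88 and 9.11, a difference of 0.36 ± 0.11 without overlap. Other members without overlap included Arrdc2, an arrestin-domain gene (0.66 ± 0.20), the phenol sulfotransferase Sult1a1 (0.40 ± 0.12), Errfi1, an inhibitor of the EGF receptor (0.49 ± 0.17), and Gjb6, the astrocyte gap junction protein connexin 30 (0.27 ± 0.09).

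Not every listed gene had a higher mean. Sox2, a transcription factor of neural progenitors and astrocytes, was the member without overlap in the other direction, at 10.52, 10.67 and 10.52 in juvenile animals and 10.25, 10.25 and 10.44 in late pubertal animals (-0.26 ± 0.08). Tsc22d3, also called GILZ and among the most widely induced glucocorticoid targets, differed by -0.05 ± 0.18 and its arrays overlapped. The phosphatase gene Dusp1 differed by 0.02 ± 0.09. Per1, a clock gene with a glucocorticoid response, differed by 0.57 ± 0.43, with juvenile replicate 1 at 7.10 inside the late pubertal range of 6.81 to 7.64. Several members belong to other lists too: Sult1a1 is also a steroid-metabolizing enzyme, Gjb6 an astrocyte gene and Klf9 a thyroid hormone target.

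**Figure D2:**
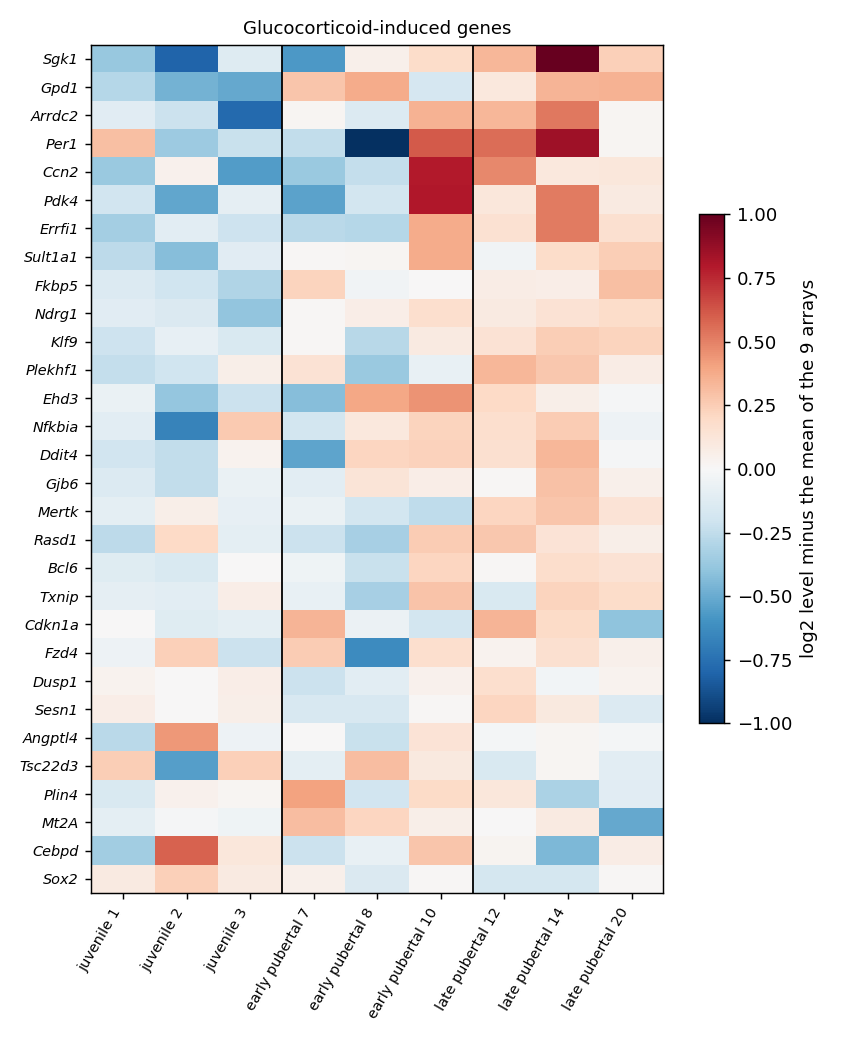
Level of the 30 tested glucocorticoid-induced genes (rows, ordered by difference) on each of the 9 arrays (columns, with stage and replicate), as the log2 level minus the gene's mean over the 9 arrays (colour, limited to 1 either way). Of the 30 genes, 6, 10 and 11 lie above their mean on the juvenile arrays and 25, 26 and 21 on the late pubertal arrays; early pubertal replicate 10, with 26, lies with the latter.

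The upstream sequences of 4 members without overlap show what lies before genes that stood higher together. RefSeq promoters of the GRCr8 build were matched by symbol for 26 of the 30 tested members, and the 250 bases before the annotated start are printed 5′ to 3′ along the gene. They are chr1:24807232-24807481 (minus strand) for Sgk1, the furthest upstream of its 3 listed starts, chr1:230126396-230126645 (plus strand) for Klf9, chr20:6543556-6543805 (minus strand) for Fkbp5 and chr1:190706113-190706362 (minus strand) for Sult1a1. Capitals mark the core of a glucocorticoid response element, TGTTCT, searched on both strands and so also read as AGAACA.
Sgk1: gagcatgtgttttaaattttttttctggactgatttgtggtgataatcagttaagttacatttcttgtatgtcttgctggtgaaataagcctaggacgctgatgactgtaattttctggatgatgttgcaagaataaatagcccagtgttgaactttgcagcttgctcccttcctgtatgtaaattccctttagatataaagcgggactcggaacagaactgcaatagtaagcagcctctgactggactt
Klf9: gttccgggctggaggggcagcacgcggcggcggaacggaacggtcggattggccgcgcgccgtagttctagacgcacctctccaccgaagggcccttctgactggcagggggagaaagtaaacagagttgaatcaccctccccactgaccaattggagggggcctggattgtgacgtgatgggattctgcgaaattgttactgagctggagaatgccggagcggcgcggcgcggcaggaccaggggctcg
Fkbp5: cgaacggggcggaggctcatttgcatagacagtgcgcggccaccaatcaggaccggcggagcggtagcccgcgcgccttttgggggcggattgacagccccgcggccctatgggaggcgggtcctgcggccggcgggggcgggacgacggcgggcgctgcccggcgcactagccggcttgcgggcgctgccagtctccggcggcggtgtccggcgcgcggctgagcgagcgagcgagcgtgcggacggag
Sult1a1: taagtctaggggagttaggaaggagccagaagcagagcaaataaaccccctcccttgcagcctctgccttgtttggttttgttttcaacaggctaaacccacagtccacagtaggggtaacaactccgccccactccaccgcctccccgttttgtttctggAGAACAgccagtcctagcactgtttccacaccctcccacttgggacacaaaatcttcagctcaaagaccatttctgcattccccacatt
Of these 4 windows, the capitals fall in that of Sult1a1 alone. This core was found in 3 of the 26 members with a promoter (Sult1a1, Gjb6 and Plin4), and in 18.5% of 27457 genes. The full palindromic element, GNACA and TGTNC with 3 bases between them and N for any base, was found on either strand in 0 of the 26 and in 0.397% of all genes. The core may lie within the full element. A match is only a match of letters, and these windows leave out enhancers further away.

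Markers of the leptomeninges, the fibroblast layers around the brain, also stood higher in the late pubertal group, though not array by array: on late pubertal replicate 12, 9 of 23 lay above their mean over the 9 arrays, against 11 on juvenile replicate 2. All 23 tested markers had a higher late pubertal mean, with a median difference of 0.25, and 6 of the 23 did not overlap, against 6.18% of all genes. Among them were the matrix genes Fmod (0.40 ± 0.12) and Mgp (0.36 ± 0.14) and the transporter Slc22a6 (0.70 ± 0.27). The collagen-binding proteoglycan Dcn overlapped, at 9.32, 9.82 and 9.16 against 9.81, 9.88 and 9.83 (0.41 ± 0.15, and 0.27 without juvenile replicate 3). Without late pubertal replicate 14 the median was 0.16 and 21 were higher. The summed signal of the 23 markers ran from 25457 to 28386 on juvenile arrays and from 28443 to 32377 on late pubertal arrays, with no overlap, and the summed signal of the 30 glucocorticoid-induced genes ran from 15946 to 16614 and from 18967 to 21110. The part of meningeal RNA in the glucocorticoid group was not tested. Sums over 12 choroid plexus genes were 7652 to 8651 and 8946 to 10181, and those over 25 endothelial and mural genes 8646 to 9668 and 9776 to 10245. Sums weigh the brightest genes most, and among the 12 these were Igf2, Enpp2 and Igfbp2. Of the 12, 8 had a higher mean and 4 a lower one, and 1 did not overlap, against 6.18% of all genes. Of the 25, 14 had a higher mean and 11 a lower one, with a median of 0.05. For 4 of the 25 the late pubertal arrays lay wholly above and for 3 wholly below, against 6.18% and 5.12%.

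**Figure D3:**
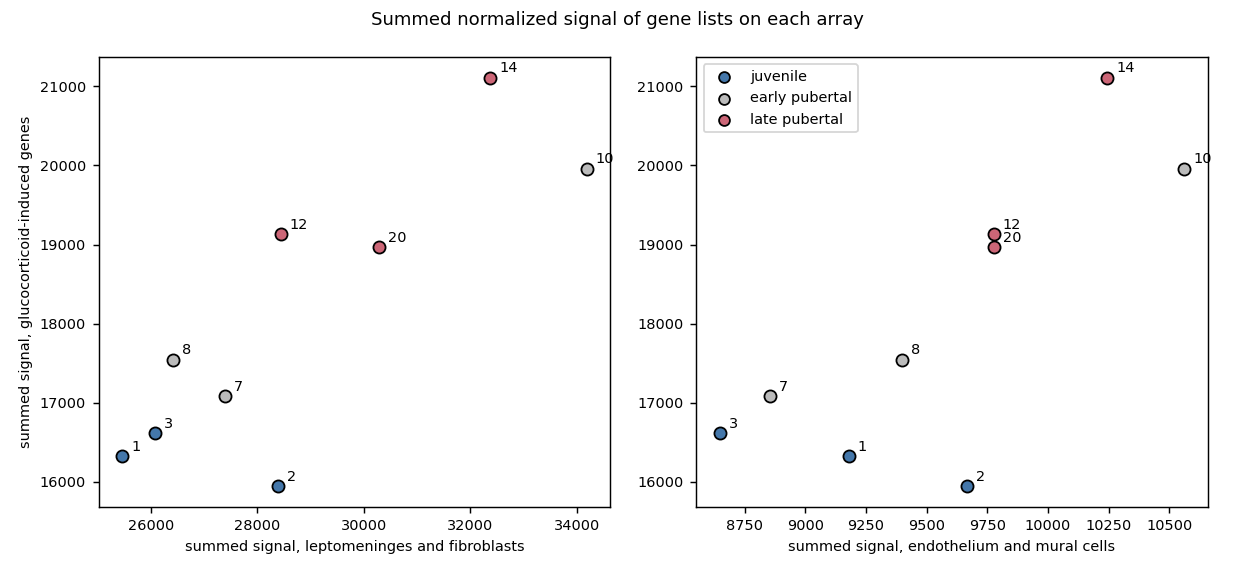
Summed normalized signal of the 30 glucocorticoid-induced genes (vertical) against that of 23 leptomeningeal genes (left) and 25 endothelial and mural genes (right); each point is 1 array, numbered by replicate and coloured by stage. The late pubertal arrays lie above all juvenile arrays on each axis, and juvenile replicate 2, at 28386 for the leptomeningeal sum, comes close to late pubertal replicate 12, at 28443. The part of meningeal RNA in the glucocorticoid group was not tested. Sums weigh the brightest genes most, and of the 25 endothelial and mural genes 14 had a higher late pubertal mean and 11 a lower one.

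Among enzymes that make or clear steroids, Akr1c15 had the smallest p of the whole comparison. It belongs to the aldo-keto reductase 1C family, whose members reduce steroids and other carbonyl compounds. Its probe set 1394681_at read 5.74, 5.61 and 6.29 in the juvenile animals and 7.10, 7.29 and 7.29 in the late pubertal ones. All juvenile arrays were low, and the 2 groups did not overlap. The juvenile values all lie under the filter level of 6.30, so the probe set passed the filter only through the later stages, and its fold rests on dim juvenile signals. The difference was 1.35 ± 0.20 (2.55-fold, n = 3 each), with a limma adjusted p of 0.336. The early pubertal arrays were already at 7.27, 7.37 and 7.08, and late minus early pubertal was -0.01 ± 0.20. At the deposited level, without quantile normalization, the difference was 1.39 with a limma adjusted p of 0.0228. The 1C genes are similar in sequence, and hybridization of this probe set to relatives was not tested. The relatives Akr1c1, Akr1c14 and Akr1c3 and the genes Star, Cyp11a1 and Cyp19a1 (aromatase) did not pass the filter.

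Other tested steroid enzymes differed less. Of the 15, 11 had a higher mean, with a median of 0.14, and 4 did not overlap in that direction, against 6.18% of all genes: Akr1c15, Sult1a1, the steroid sulfatase Sts (0.28 ± 0.16) and Hsd11b1 (0.17 ± 0.11). Akr1c15 counts among these 4 although it passed the filter only through the later stages, so its place in the share carries no weight. Hsd11b1 encodes the enzyme that regenerates active glucocorticoid inside cells, and read 8.43, 8.40 and 8.44 in juvenile and 8.51, 8.60 and 8.68 in late pubertal animals. Without late pubertal replicate 12 the median was 0.22. Among 18 steroid receptors and cofactors, 9 were higher, with a median of 0.02 that ran from -0.05 to 0.06 with single arrays left out, and the mineralocorticoid receptor Nr3c2 differed by 0.30 ± 0.17 with overlap (0.18 without juvenile replicate 1 and 0.49 without juvenile replicate 2). The oestrogen receptors Esr1 and Esr2 missed the filter.

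Meg3, a maternally expressed imprinted gene whose product is a long non-coding RNA, came next by p. Its probe set 1388357_at read 9.88, 10.09 and 9.62 in juvenile animals and 10.53, 10.63 and 10.53 in late pubertal animals. The late pubertal arrays were the 3 highest of the 9 and differed little among themselves. The difference was 0.70 ± 0.11 with a limma adjusted p of 0.371, and 0.79 with an adjusted p of 0.0287 when limma weighted the arrays. A second, brighter probe set of Meg3 differed by 0.07 and overlapped, with juvenile replicate 2 at 10.99 above all late pubertal arrays. Only the dimmer probe set thus showed the difference. Among 19 imprinted genes tested, 8 were higher, with a median of -0.02.

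S100g encodes calbindin-D9k, a small calcium-binding protein under vitamin D and oestrogen control in other organs. It stood at 6.39, 6.31 and 6.19 in juvenile animals, at 6.89, 6.18 and 5.65 in early pubertal animals, and at 7.18, 7.68 and 7.48 in late pubertal animals. Only the late pubertal arrays were high, and they overlapped with neither other stage. The juvenile value of 6.19 and the early pubertal values of 6.18 and 5.65 lie under the filter level, where signals are dim. The juvenile values of 6.39 and 6.31 lie little above that level, so the fold of S100g rests on dim juvenile signals. Late minus juvenile was 1.15 ± 0.27 (2.22-fold) with a limma adjusted p of 0.9998, and late minus early was 1.21 ± 0.27 with an adjusted p of 0.914. Gadd45g, a growth arrest and DNA damage gene, was likewise high only on the late pubertal arrays, with 7.05, 7.44 and 7.46, then 7.26, 7.55 and 7.22, then 8.09, 7.82 and 7.85. Its late minus juvenile difference was 0.60 ± 0.16 and its late minus early difference 0.58 ± 0.16. Across all probe sets, late minus early pubertal gave 0 calls in limma at an adjusted p under 0.05 in either direction, and 548 higher (2.94%) and 423 lower (2.27%) at an unadjusted p under 0.05.

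Further genes by the smallest p on the late pubertal side were the secreted factor Fibin (0.67 ± 0.13, with 0.76 ± 0.19 by its second probe set), the Wnt signalling gene Dvl3 (1.04 ± 0.25, with all juvenile values under the filter level), Gpatch4 (0.63 ± 0.16) and the Hsp70 relative Hspa12a (0.55 ± 0.15). The other tested probe sets of Gpatch4 differed by -0.07 and 0.10. The largest differences without overlap also included RT1-Bb, a class II histocompatibility gene (1.28 ± 0.61), Tbl2 (1.22 ± 0.35) and the cholesterol exporter Abca1 (1.21 ± 0.45). Without juvenile replicate 2, which read 4.34 for RT1-Bb and 6.78 for Abca1, these differences were 0.48 and 0.51. The value of 4.34 lies under the filter level, where signals are dim. Tbl2 read 5.57, 5.72 and 7.16 on the juvenile arrays, with replicates 1 and 2 under that level too. Its difference was 0.92 without juvenile replicate 1 and 1.73 without juvenile replicate 3. Tbl2 and Abca1 had further tested probe sets at -0.03, and at -0.04 and 0.50.

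**Figure D4:**
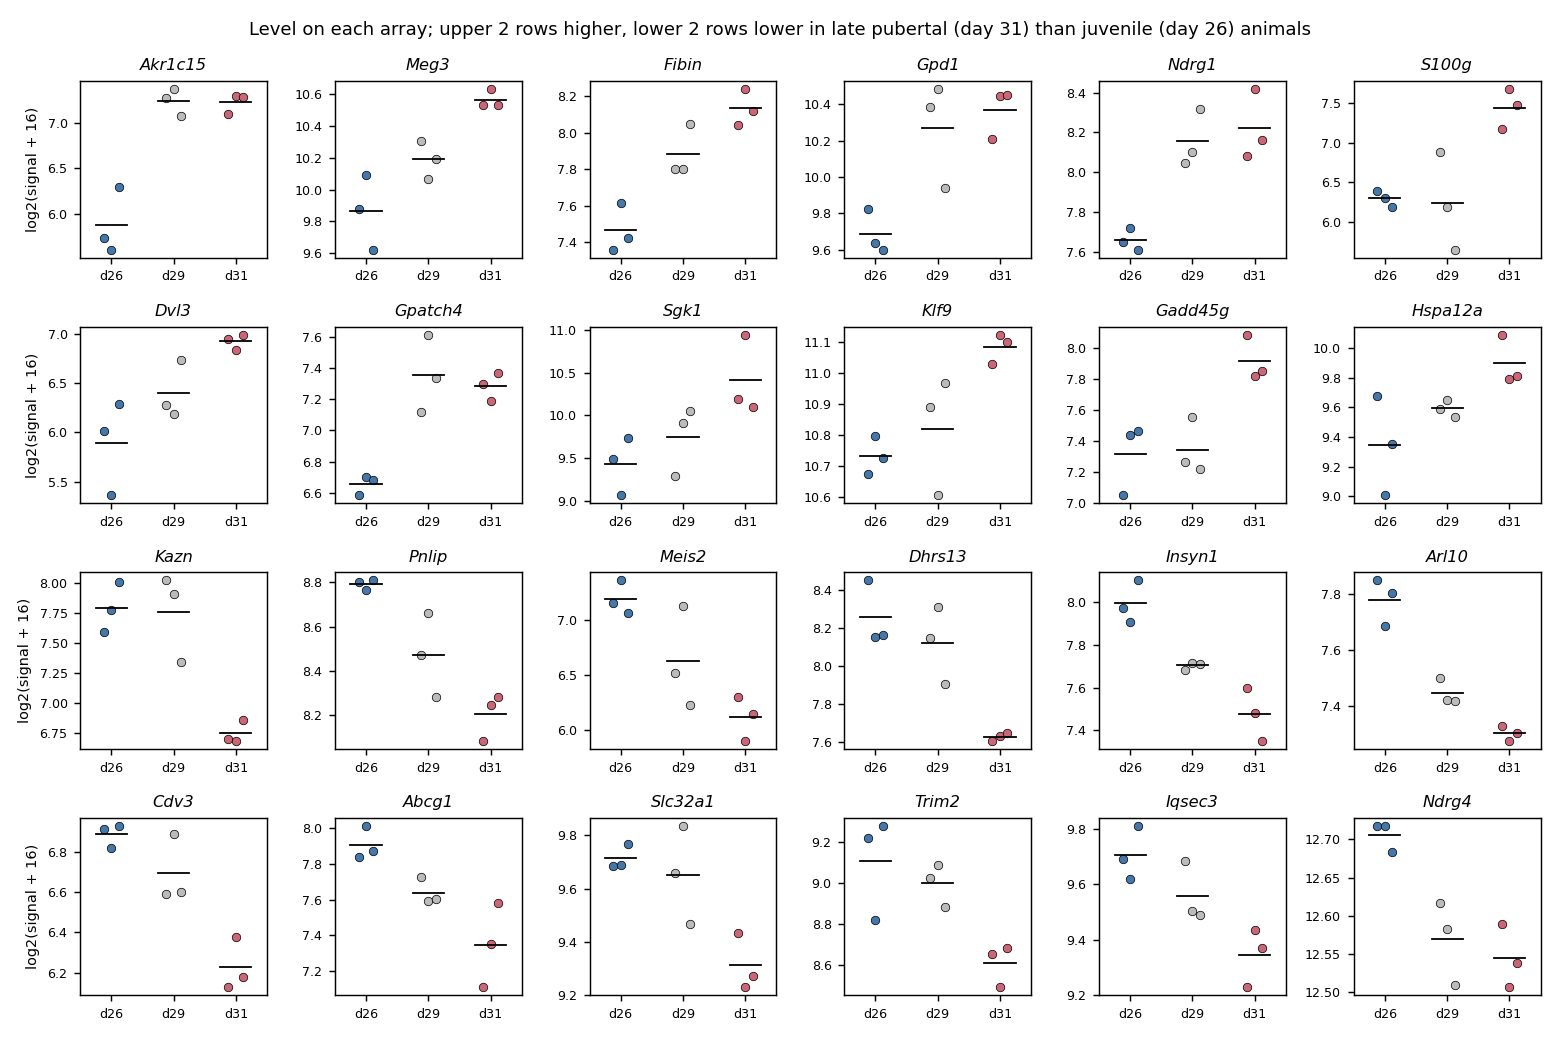
Level of the 12 genes per direction with the smallest unadjusted p among those without overlap, as log2(signal + 16) (vertical, with its own range in each panel); points are single arrays by age in days (26 juvenile, 29 early pubertal, 31 late pubertal) and bars are means of 3 arrays. Early pubertal arrays lie with the late pubertal ones for Akr1c15 and Gpatch4 and nearer the juvenile ones for S100g, Gadd45g and Kazn.

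Genes seen by several probe sets gave a stricter view. Of 2775 genes with 2 or more tested probe sets, every probe set was without overlap in the late pubertal direction for 18 (0.649%) and in the juvenile direction for 10 (0.36%). The 18 included Gpd1, Fibin, Ndrg1 and Klf9, and also Adora1, the inhibitory A1 adenosine receptor (0.59 ± 0.29 and 0.55 ± 0.15), and Acer2, an alkaline ceramidase (0.45 and 0.61). The dimmer Adora1 probe set differed by 0.27 without juvenile replicate 2. The brighter one read 7.71, 7.57 and 7.25 in juvenile and 8.02, 8.11 and 8.05 in late pubertal animals. The 10 on the juvenile side included Cenpv, a centromere protein gene (-0.48 ± 0.16 and -0.38 ± 0.15), Itpr2, an inositol trisphosphate receptor of intracellular calcium stores (-0.50 ± 0.15 and -0.12 ± 0.12), and Pde10a, a phosphodiesterase abundant in striatum (-0.22 ± 0.10 and -0.31 ± 0.15). Pde1b, another phosphodiesterase of striatal neurons, stood the other way (0.29 ± 0.12 and 0.97 ± 0.52), and these were 0.17 without late pubertal replicate 20 and 0.39 without juvenile replicate 2. Over 22 markers of striatum, thalamus and cortex the median was 0.02, with 12 higher, and it ran from -0.06 to 0.03 with single arrays left out.

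On the juvenile side the smallest p belonged to Kazn, whose product kazrin binds junctional and cytoskeletal proteins. Its probe set 1384807_at read 7.59, 7.78 and 8.01 in juvenile animals and 6.70, 6.68 and 6.86 in late pubertal animals, while early pubertal animals were at 8.02, 7.91 and 7.34. The late pubertal arrays were lower than all 6 others. The difference was -1.04 ± 0.19 (limma adjusted p = 0.733) and late minus early was -1.01 ± 0.19 (limma adjusted p = 0.914). Its other probe sets differed by -0.24 and 0.01. Meis2, a homeobox factor of forebrain neurons and one of 15 hypothalamic patterning factors tested, read 7.16, 7.36 and 7.06 in juvenile animals and 6.29, 5.90 and 6.15 in late pubertal animals. These did not overlap, and the late pubertal values all lie under the filter level of 6.30, where signals are dim. The difference was -1.08 ± 0.23 (limma adjusted p = 0.923).

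Pnlip, best known as pancreatic lipase, read 8.80, 8.77 and 8.81 in juvenile animals and 8.08, 8.24 and 8.28 in late pubertal animals, a difference of -0.59 ± 0.12 (limma adjusted p = 0.779). The juvenile arrays lay close together and well above the late pubertal ones. Further genes on this side were the short-chain dehydrogenase Dhrs13 (-0.63 ± 0.13), the sterol exporter Abcg1 (-0.56 ± 0.14), the ubiquitin ligase Trim2 (-0.50 ± 0.13), Cdv3 (-0.66 ± 0.17) and Arl10 (-0.48 ± 0.12). Each of these 5 had other tested probe sets, which differed by -0.13 to 0.09 except for one of Abcg1 at 0.34. The largest differences on this side also included Man2c1, a cytosolic mannosidase (-1.09), and Lpcat4, a lysophospholipid acyltransferase (-0.80), and 2 other probe sets of Man2c1 differed by 0.02 and 0.05.

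Genes of GABA signalling, the main inhibitory input to GnRH neurons, stood lower more often than higher, though not array by array. On juvenile replicate 2, 9 of 21 lay above their mean over the 9 arrays, against 11 on late pubertal replicate 12. Of 21 tested, 16 had a lower late pubertal mean, with a median of -0.10, against 49.2% of all genes lower. The arrays did not overlap in that direction for 5, against 5.12% of all genes, and in the other direction for 0. Slc32a1, the transporter that loads GABA into synaptic vesicles, read 9.69, 9.69 and 9.77 in juvenile animals and 9.43, 9.23 and 9.27 in late pubertal animals. The groups lay apart, by a difference of -0.40 ± 0.10 (limma adjusted p = 0.9998). Gad1, the enzyme that makes GABA, read 11.83, 11.98 and 11.87 against 11.76, 11.73 and 11.76 (-0.14 ± 0.06). Insyn1, a postsynaptic protein of inhibitory synapses, differed by -0.52 ± 0.12, and -0.32 by a second probe set. The GABA-degrading dehydrogenase Aldh5a1 differed by -0.17 ± 0.08 and the receptor subunit Gabrb2 by -0.08. Without late pubertal replicate 14 the median was -0.06 and 7 were higher. Iqsec3, an exchange factor of inhibitory synapses outside the list, differed by -0.36 ± 0.09.

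Of 22 synaptic vesicle genes, 7 were higher, with a median of -0.04 that was -0.11 without juvenile replicate 2 and -0.0095 without juvenile replicate 1. The calcium sensor Syt1 read 10.01, 9.44 and 9.95 against 9.45, 9.42 and 9.27 (-0.42 ± 0.15), with juvenile replicate 2 inside the late pubertal range. Vamp2 (-0.26 ± 0.11) overlapped in the same way and Syn1 (-0.23 ± 0.09) did not overlap. Of 25 glutamate genes 11 were higher, with a median of -0.0088 that ran from -0.06 to 0.04 with single arrays left out, and of 32 potassium channel genes 15, with a median of -0.02. The paranodal adhesion gene Cntnap1 (-0.62 ± 0.21) and the axonal Nfasc (-0.28 ± 0.12, and -0.42 without juvenile replicate 3) both overlapped, within a group of 22 neuron-glia adhesion genes that had 7 higher. Of 21 genes of immature neurons and axon growth, 5 were higher, with a median of -0.06.

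Of the peptides and receptors of GnRH control, 18 were tested, 12 were higher, with a median of 0.01, and 3 did not overlap in that direction, against 6.18% of all genes. The median ran from -0.05, without juvenile replicate 2, to 0.12, without juvenile replicate 3. Npvf, the precursor of the RFamide peptides that inhibit gonadotropin release, read 8.38, 8.03 and 8.44 in juvenile animals and 8.78, 8.97 and 8.91 in late pubertal animals (0.60 ± 0.23). Pdyn, the dynorphin precursor, differed by 0.29 ± 0.13 and Cartpt, a peptide of arcuate neurons, by 0.18 ± 0.09 (0.11 without juvenile replicate 2), both without overlap. Npy, whose arcuate neurons also drive feeding, differed by 0.19 ± 0.12 (0.095 without late pubertal replicate 14) and overlapped. Gnrh1 itself, Kiss1r and Pomc did not pass the filter. Of 18 proposed regulators of puberty, 11 were higher, with a median of 0.02 and a range from -0.16 to 0.27, and 1 did not overlap, a share near that of all genes. The corticotropin-releasing hormone gene Crh read 7.02, 7.56 and 7.07 in juvenile and 7.05, 6.68 and 6.75 in late pubertal animals (-0.39 ± 0.19, and -0.22 without juvenile replicate 2), with overlap.

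Tanycyte and thyroid hormone genes stood higher in 13 of 16, with a median of 0.13. In that direction 2 did not overlap (Klf9 and Rax), against 6.18% of all genes. In the other direction 1 did not overlap (Slco1c1, -0.22 ± 0.12), against 5.12%. Smaller differences with overlap were those of Vim (0.12), Col23a1 (0.05), Fndc3c1 (0.02), Ppp1r1b (0.02) and Nes (-0.02). Rax, a homeobox factor that marks tanycytes, read 6.74, 6.83 and 6.86 in juvenile animals and 7.59, 7.10 and 7.37 in late pubertal animals, without overlap (0.54 ± 0.15). Dio3, the deiodinase that inactivates thyroid hormone, differed by 0.68 ± 0.32 and overlapped, and Dio2 missed the filter. The juvenile mean of Dio3, 6.26, and its early pubertal mean, 6.13, lie under the filter level, so its difference rests on dim juvenile signals. Of 21 astrocyte genes, 14 were higher, with a median of 0.06 that was 0.0012 without late pubertal replicate 14, 0.015 without juvenile replicate 2 and 0.096 without juvenile replicate 1. Aldh1l1 (0.31 ± 0.11), Ntsr2 (0.16 ± 0.05), Gjb6 and the filament gene Gfap (0.17 ± 0.07) did not overlap. These were 4 of 21, against 6.18% of all genes, and 1 other did not overlap in the other direction, against 5.12%. The list did not part the stages array by array: 10, 4 and 10 members lay above their mean on juvenile arrays and 8, 14 and 12 on late pubertal ones. Gfap read 12.03, 12.13 and 11.98 against 12.16, 12.20 and 12.29.

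Of 17 genes of oligodendrocyte precursors, 3 were higher, with a median of -0.07, and 4 did not overlap on the juvenile side, against 5.12% of all genes, among them Sox6 (-0.34 ± 0.16) and Nkx2-2 (-0.29 ± 0.14). Without juvenile replicate 1, 8 were higher and the median was -0.03. In mature oligodendrocytes 17 of 27 were higher, with a median of 0.03, but without juvenile replicate 3 the median was -0.06 with 8 higher, and without juvenile replicate 1 it was 0.13 with 23 higher. The small heat shock protein Cryab differed by 0.44 ± 0.14, and by 0.27 without juvenile replicate 3. Of 20 microglial genes 7 were higher, with a median of -0.06 that was -0.17 without juvenile replicate 3. Cd74, the class II invariant chain, differed by 0.44 ± 0.16 and the microglial gene Tyrobp by -0.33 ± 0.15, each without overlap and in opposite directions.

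Interferon-inducible genes were higher in 17 of 19, with a median of 0.11, which was 0.21 without juvenile replicate 2 and 0.17 without late pubertal replicate 12. Without late pubertal replicate 14 the median was 0.086 and 13 were higher. For 4 of the 19 the late pubertal arrays lay wholly above, against 6.18% of all genes, and for 0 wholly below. The list did not part the stages array by array: 3, 12 and 3 members lay above their mean on juvenile arrays and 11, 13 and 11 on late pubertal ones. Ifi27 read 10.66, 10.59 and 10.61 in juvenile animals and 10.86, 10.89 and 10.75 in late pubertal animals (0.21 ± 0.07), and early pubertal animals were at 10.90, 11.07 and 10.84. Isg15, a ubiquitin-like protein, differed by 0.77 ± 0.28, with juvenile replicate 3 at 5.89 below the other juvenile values of 7.02 and 7.24, and by 0.36 without that array. Cytosolic ribosomal protein genes were higher in 21 of 25 by a median of only 0.06, yet 11 of the 25 did not overlap, against 6.18% of all genes. Rps3a read 12.37, 12.42 and 12.37 against 12.55, 12.43 and 12.53 (0.11 ± 0.05). Clock genes were higher in 13 of 19, with a median of 0.05 that was 0.09 to 0.13 without juvenile replicate 1 or 3 or late pubertal replicate 20. Bmal1 differed by -0.34 ± 0.13 and Cry1 by 0.23 ± 0.10, both without overlap, and the hour of tissue collection is not given in the sources used here.

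**Figure D5:**
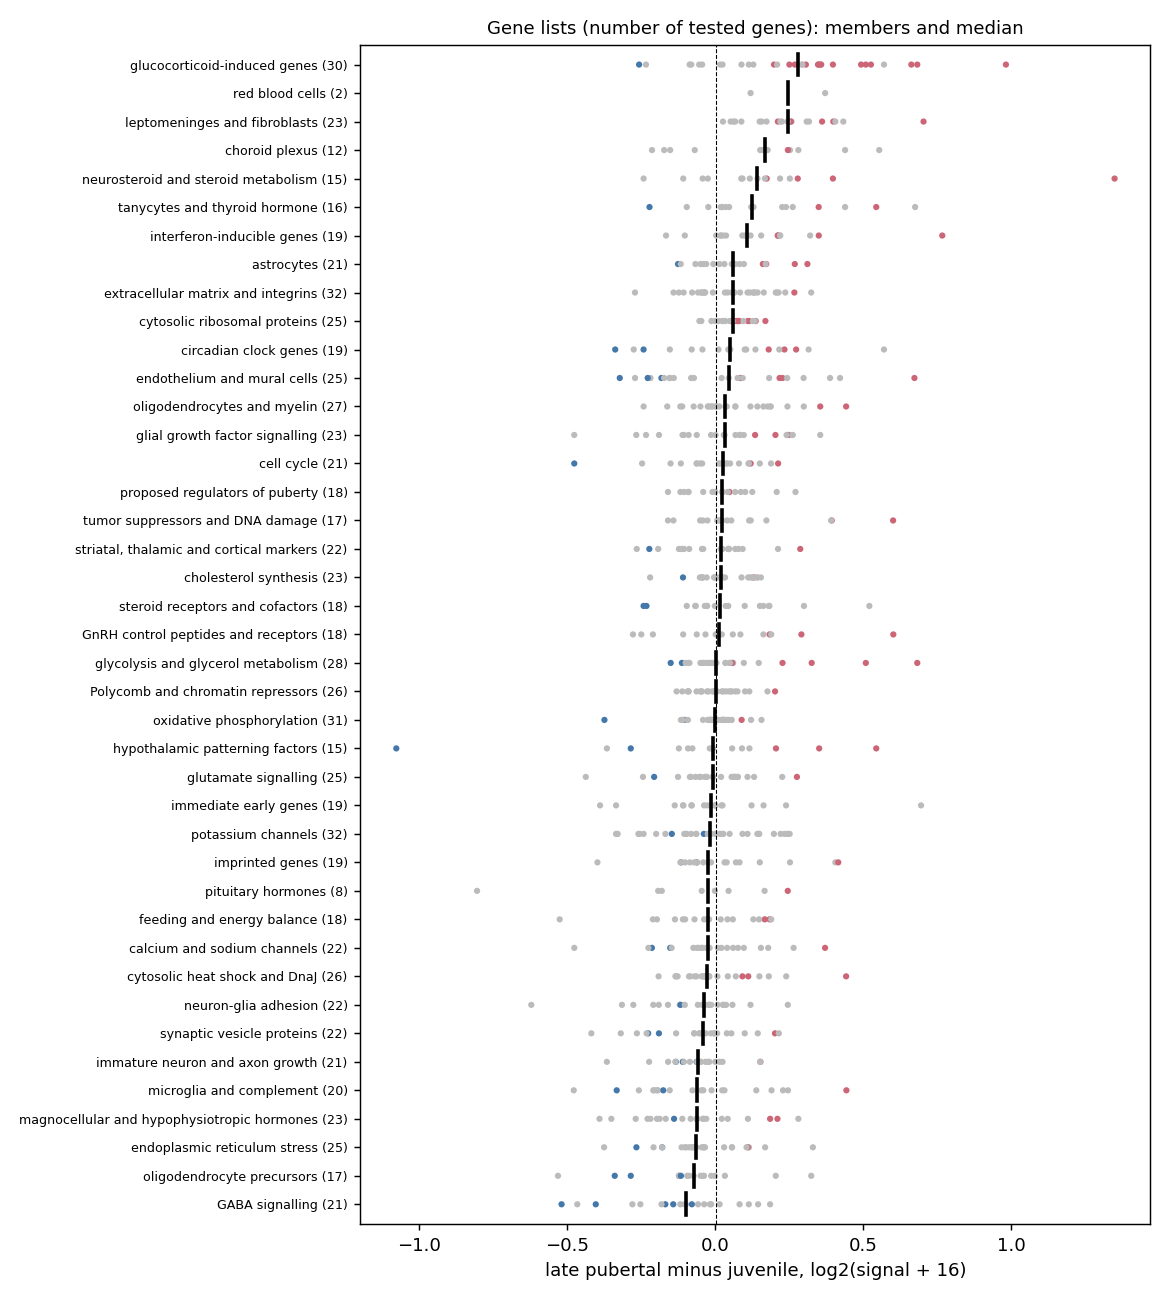
Difference between late pubertal and juvenile hypothalamus on the log2(signal + 16) scale (horizontal) for the tested members of 41 gene lists (rows, ordered by median, with the number of tested genes); points are genes, red or blue where the 3 arrays of each stage do not overlap (higher or lower in late pubertal animals), black bars are medians and the dashed line is the median of all genes. The glucocorticoid-induced list lies at the top with a median of 0.28 and GABA signalling at the bottom with -0.10.

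Among the groups not yet described, choroid plexus genes were higher in 8 of 12 with a median of 0.17 (0.09 without late pubertal replicate 14), and the 2 red blood cell genes had a median of 0.25 that was -0.18 without late pubertal replicate 14. Magnocellular and other peptide hormone genes were higher in 6 of 23 with a median of -0.06 (-0.13 without juvenile replicate 2), and endoplasmic reticulum stress genes in 8 of 25 with a median of -0.06. Extracellular matrix genes were higher in 19 of 32 with a median of 0.06 that was -0.01 without juvenile replicate 3. Cholesterol synthesis had 13 of 23 higher with a median of 0.02, oxidative phosphorylation 15 of 31 with a median of -0.0013, and the cell cycle 13 of 21 with a median of 0.03. Polycomb and other chromatin repressors had 13 of 26 higher with a median of 0.0013, and tumor suppressor and DNA damage genes 12 of 17 with a median of 0.02. Immediate early genes of neuronal activity had 9 of 19 higher with a median of -0.01. Over these 6 lists the medians with single arrays left out ran from -0.07 to 0.06. Fos read 9.11, 9.24 and 8.93 in juvenile animals, 7.75, 7.74 and 8.50 in early pubertal animals and 9.32, 8.56 and 8.40 in late pubertal animals, so that early pubertal replicates 7 and 8 were the lowest and juvenile and late pubertal arrays overlapped. Among 8 pituitary genes the median was -0.02, and it ran from -0.21 to 0.06 with single arrays left out. Tshb, which marks pituitary tissue, differed by -0.80 ± 0.65, and juvenile replicate 2, at 9.18, stood far above the other juvenile arrays at 6.45 and 6.55; without it the difference was 0.090.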

How the data were processed

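Signals of 9 Affymetrix arrays were used. The deposited values are probe set intensities on a linear scale that the authors made with MAS5, per the submitters' processing notes. The MAS5 version, masks and target level are not stated in the notes. The number of arrays limits the precision. Per the labels' protocols, RNA was labelled from oligo-dT-primed cDNA. Probe sets were named from the platform annotation: of 31042 left after 57 controls, 20826 had 1 symbol, 436 several and 9780 none, and 20758 matched a current record by Entrez identifier.

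Values were taken as log2(signal + 16) and quantile normalized. Probe sets with a mean above the 40th percentile (6.30) were tested with limma 3.58.1 in R 4.3.3: all 9 arrays, 1 mean per stage, trended prior, two-sided, Benjamini-Hochberg over 18625 probe sets, threshold 0.05. The script was tested on simulated data. No batch, date or pairing is labelled, and none was modelled. In lists, a gene stands by its brightest tested probe set, and no list was tested. The comparison and the lists were chosen with earlier results of these data known. Genes were named by rule: per direction, 12 without overlap with the smallest p, 5 with the largest difference, and up to 12 with every probe set without overlap; per list, 3 with the smallest p. Other list members, and genes outside the rule, were chosen after their values were seen. Alternatives changed the added constant, scaling, filter, prior, array weights and arrays used, 19 in all.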

Additional observations from a re-analysis of the deposited data

How the results depend on the processing

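The adjusted counts of 0 higher and 0 lower probe sets held in limma under the 19 alternatives with 3 exceptions. A single probe set was called higher at the deposited level (1; Akr1c15), and 1 with array weights (Meg3). With single arrays left out the higher count was 0 to 0 and the lower count 0 to 1, the 1 being an unnamed probe set (-1.18, limma adjusted p = 0.0143) without juvenile replicate 2. The counts at an unadjusted p under 0.05 moved more: 243 higher and 201 lower at the deposited level, 295 and 452 with median centring, 669 and 646 with no filter, 1090 and 995 with array weights, and 266 to 817 higher and 249 to 769 lower with single arrays left out. The genes Tshb, Alas2 and Hbb changed sign: with single arrays left out Tshb ran from -1.30 to 0.090 (without juvenile replicate 2), Alas2 from -0.21 (without late pubertal replicate 14) to 0.76 and Hbb from -0.15 (without late pubertal replicate 14) to 0.29. The cause was not tested. Of the values for named genes under the alternatives, 3147 kept direction and side of the threshold, 3 changed sign and 2 passed it. Of the list medians, 744 moved by less than the spread between arrays and 35 by more. The share of probe sets higher was 49.6% in the main setting, 45.3% at the deposited level and 41.8% with median centring. No paired analysis was possible because the replicate numbers are not shared between stages. With 3 arrays per stage, a difference had to be large against a median SE of 0.15 to pass the correction, and dim genes near the filter have the least reliable values.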
